A study of Spirodela polyrhiza with 16 samples.

Results

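The NAC transcription factors of the giant duckweed Spirodela polyrhiza were taken as the genes whose deposited description carries the No apical meristem (NAM) domain of the Pfam protein-family database, PF02365. This gave 58 of the 20389 genes in the table, chosen without regard to their levels. Spirodela polyrhiza is a small floating plant that consists of a leaf-like frond with a tuft of roots. Clone 9509 was grown in 250 ml flasks holding 100 ml of N-Media, which was exchanged on day 10 and the plants were taken on day 11. Polyadenylated RNA was sequenced from 4 groups of 4 libraries. These were roots after 1 day without phosphate (KH2PO4 left out of the new medium), roots after 1 day in complete new medium (control), fronds after 1 day without phosphate, and fronds after 1 day in complete new medium (control). All plants came from this 1 clone, control plants had the medium exchange too, and each library is a pool of the fronds or of the roots of 1 flask. The p-values therefore measure the spread between flasks of 1 clone in 1 experiment. Libraries are named by group and by the column number of the table, which runs from 5 to 8 without phosphate and from 1 to 4 in control medium, and values per library are given in that order.

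NAC proteins are plant-specific transcription factors that bind DNA as dimers through the conserved NAM domain at their N terminus, while the variable C terminus activates or represses transcription. In Arabidopsis thaliana and rice, single members are known to set organ boundaries, to drive root cap maturation, lateral root growth, xylem and phloem differentiation, and to act in abscisic acid signalling, drought and salt responses, programmed cell death and senescence. Some are made as membrane-bound precursors and enter the nucleus after they are cut free. The duckweed genes carry no symbols and are named here by their identifier and by the closest Swiss-Prot protein that the table gives. Such a name comes from sequence likeness alone and says nothing certain about what the duckweed gene does.

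Whole reads recovered from the deposited FPKM values (fragments scaled to gene length and library size) summed to between 6325297 and 12437151 per library, so that 3 reads on 1 kb of coding sequence were worth 0.213 to 0.507 FPKM. The labelled organs were checked against marker genes. The summed level of 9 chlorophyll a-b binding protein genes was 8754 to 15563 FPKM in roots without phosphate and 30747 to 36189 FPKM in fronds without phosphate, and 11694.5 to 18174 FPKM in control roots and 36164 to 40500.4 FPKM in control fronds. All 9 were above 0 in every library, roots included. The 1 gene for a Casparian strip membrane protein, which marks the root endodermis, ran from 22.4 to 67.8 FPKM over the 8 root libraries and from 1.73 to 3.85 FPKM over the 8 frond libraries. Genes for SCARECROW, SHORT-ROOT and root cap domain proteins, also meant as root markers, overlapped between the organs. The summed level of 7 tonoplast aquaporin genes, meant as root markers too, overlapped without phosphate (6523 to 10327 FPKM in roots, 8361 to 11517 FPKM in fronds). In control medium it went against its label, with 7000 to 9276 FPKM in roots and 9694 to 11617 FPKM in fronds. The 1 gene annotated as Rubisco small chain also went against its label, with 488 to 633 FPKM in roots and 19.9 to 33.8 FPKM in fronds. The part that green tissue in the root pools has in the organ differences of NAC genes was not tested.

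The 58 genes lay on 18 chromosomes, with a coding length of 303 to 2817 bases (median 1071) and with no overlap with another gene. For 51 of them the closest Swiss-Prot protein was from Arabidopsis thaliana, and 39 different proteins were named in all. In 4 genes the model carried a second Pfam domain. Sp08g00381 also held a ubiquinol-cytochrome C reductase domain, Sp18g00340 a gibberellin-regulated protein domain and Sp04g01047 a glycosyltransferase domain, while Sp05g00858 held an N-terminal asparagine amidohydrolase domain and had that enzyme as its closest protein. Several members were close neighbours. On chromosome 1, Sp01g01212 (8076757 to 8078819, minus strand), Sp01g01214 (8087593 to 8088906, minus strand) and Sp01g01216 (8121580 to 8122578, plus strand) followed each other with 1 other gene in each interval. Sp02g00901 and Sp02g00902 were 56 bases apart, Sp06g01042 and Sp06g01043 80 bases, Sp12g00018 and Sp12g00019 646 bases, and Sp20g00167 and Sp20g00168 829 bases. Coordinates are those of the table, whose genome build is not given in the sources used here.

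A gene was tested where its mean over the 16 libraries was at least 0.5 FPKM, which 47 members passed and 11 did not. Sp12g00877, Sp20g00167 and Sp07g01072 lay just under that level with means of 0.468, 0.376 and 0.371 FPKM, and Sp04g00106, Sp17g00156 and Sp16g00192 just over it with 0.509, 0.596 and 0.710 FPKM. None of the 11 untested members had a group mean above 0.326 FPKM in roots without phosphate, 0.376 FPKM in control roots, 0.695 FPKM in fronds without phosphate or 1.18 FPKM in control fronds. Among them were both FEZ homologs, both homologs of the vessel factor NAC7 and the homolog of NAC43 (NST1), the Arabidopsis factor of fibre cell walls, which had 1 read in the 16 libraries. In roots these genes were close to the limit of detection at this depth. In fronds some held more reads, such as Sp12g00877 (29 without phosphate, 49 in the control) and Sp20g00167 (35 in the control). The filter averages both organs, so genes low in roots could miss it. The levels of the untested genes are not described further except where named.

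**Figure D1:**
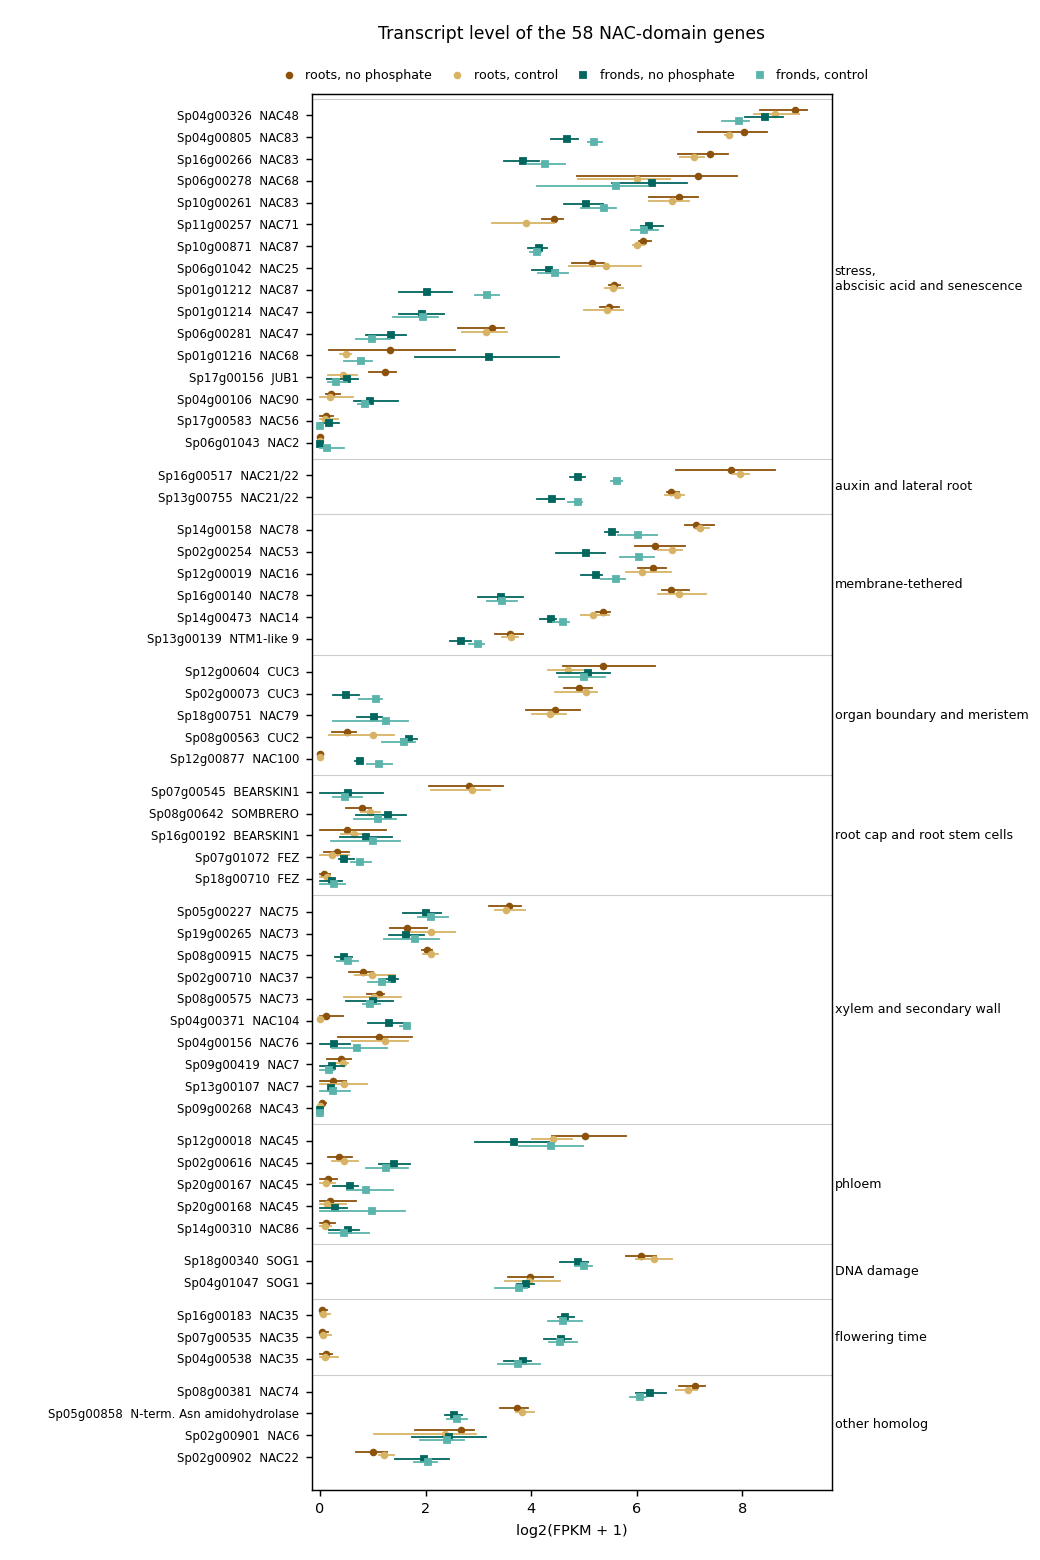
Levels of the 58 NAC-domain genes on the log2(FPKM + 1) scale, ordered by the role known for the closest named protein and within a role by mean level. Symbols are means of 4 libraries and lines run from the lowest to the highest library, for roots (circles) and fronds (squares) without phosphate (dark) and in control medium (light). Sp04g00326 is the highest gene in every group, and the 3 NAC35 homologs lie near 0 in roots and well above it in fronds.

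Summed over the 58 genes, NAC transcripts stood at 2569 ± 259 FPKM in roots without phosphate and 1071 ± 127 FPKM in fronds without phosphate, and at 2314 ± 164 FPKM in control roots and 1056 ± 99.9 FPKM in control fronds (SD, n = 4 each). The lowest root library (2170 FPKM, a control root) lay above the highest frond library (1249 FPKM, without phosphate). As a share of all FPKM, NAC transcripts made up 0.278% in roots without phosphate, 0.257% in control roots, 0.0949% in fronds without phosphate and 0.0965% in control fronds. The sum was uneven over the genes. Sp04g00326 alone took 19.8% in roots without phosphate, 17.0% in control roots, 32.1% in fronds without phosphate and 23.1% in control fronds, and the 5 highest genes of a group took 48.1% to 57.6%. At the other end, 21 members were under 1 FPKM in roots without phosphate, 22 in control roots and 18 in each frond group. In bulk tissue a higher share of the cells that express a gene and more RNA per cell cannot be told apart.

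**Figure D2:**
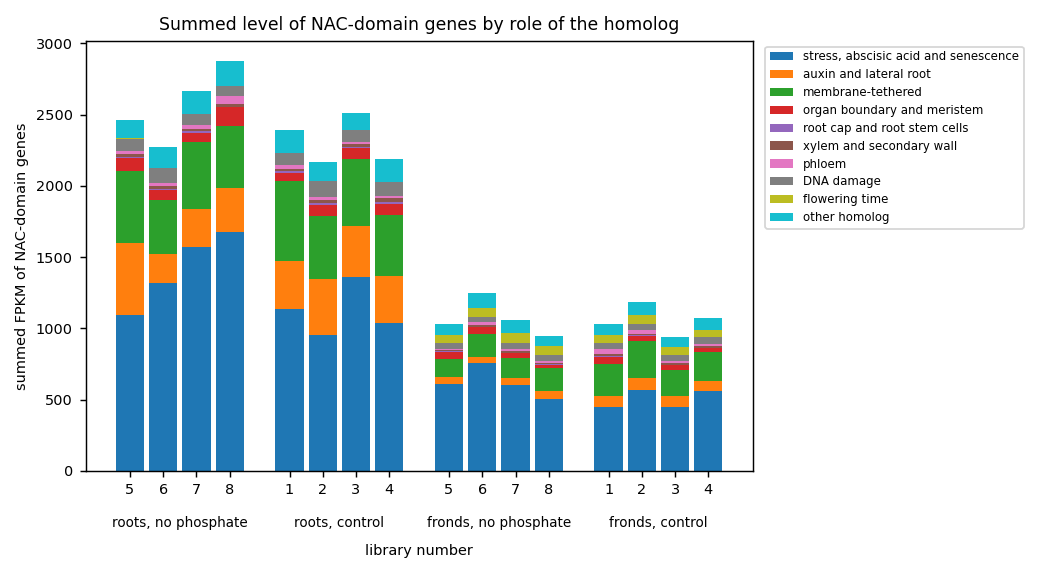
Summed FPKM of the NAC-domain genes in each of the 16 libraries, stacked by the role known for the closest named protein. All 8 root bars (2170 to 2875 FPKM) stand above all 8 frond bars (940 to 1249 FPKM), and the stress, abscisic acid and senescence group is the largest part of every bar.

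Root and frond were compared in each medium on log2(FPKM + 1), with limma fitted over all 16598 tested genes and a gene called at an adjusted p under 0.05. Without phosphate, 28 of 47 tested NAC members were higher in roots and 11 lower, against 32.6% of all tested genes called higher and 35.0% called lower (67.6% either way). In control medium 25 were higher in roots and 9 lower, against 28.8% of all tested genes called higher and 31.0% called lower (59.8% either way). The median log2 difference of the tested members, root minus frond, was 0.85 without phosphate and 0.55 in control medium, while that of all tested genes was -0.02 in both media. Scaling every library to the same FPKM sum moved the median of all genes to 0.23 and 0.22 and that of the tested members to 1.14 and 0.86. The members called higher and lower were then 28 and 9 without phosphate and 25 and 7 in control medium.

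All 34 members called in control medium were called in the same direction without phosphate. The 2 comparisons share no library in their means, but both use the spread estimated over all 16 libraries. Over all genes, 8957 of the 9929 calls in control medium (90.2%) were repeated in the same direction, which is 79.9% of the calls without phosphate. Called only without phosphate were Sp04g00156, Sp12g00018 and Sp17g00156 as higher in roots and Sp01g01216 and Sp02g00710 as lower in roots. Whether their organ difference changed with the medium is the interaction given further on, where no gene was called. In neither medium were Sp02g00901, Sp04g01047, Sp06g00278, Sp08g00575, Sp08g00642, Sp12g00604, Sp16g00192 and Sp19g00265 called.

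**Figure D3:**
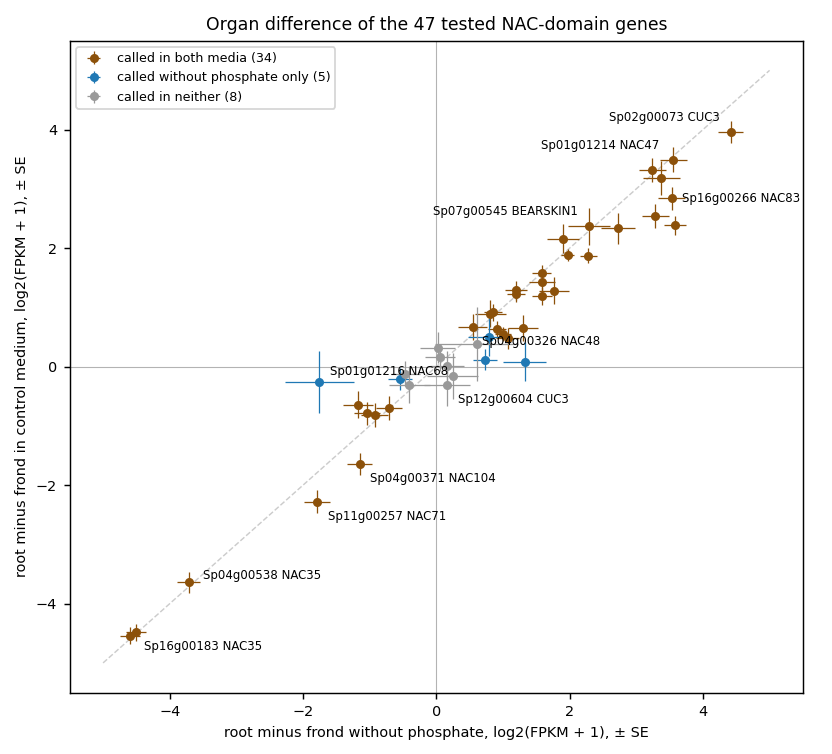
Root minus frond difference of the 47 tested NAC-domain genes on the log2(FPKM + 1) scale, without phosphate (x axis) and in control medium (y axis), with standard errors; the dashed line marks equal differences. The 34 genes called in both media had the same direction in both and run from -4.60 to 4.42 on the x axis, some of them off the line (Sp01g01212 by 1.19 and Sp04g00805 by 0.73), and the 5 called only without phosphate lie between -1.75 and 1.33 on the x axis.

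Of the 16 members whose closest protein is known from stress, abscisic acid or senescence, 14 were tested, of which 10 were higher and 3 lower in roots without phosphate, and 9 were higher and 2 lower in control medium. Among all 47 tested NAC members 28 were higher and 11 lower without phosphate and 25 and 9 in control medium, and of all tested genes 32.6% and 28.8% were called higher. The summed level of the 16 genes was 1415 ± 262 FPKM in roots and 619 ± 103 FPKM in fronds without phosphate, and 1121 ± 176 FPKM in roots and 506 ± 67.3 FPKM in fronds of the control (SD, n = 4). The highest NAC gene of all, Sp04g00326 (chromosome 4, 1572509 to 1573916), is closest to rice NAC48, the stress factor also called OsNAC6. It had 323, 527, 594 and 593 FPKM in roots and 340.4, 436, 336 and 264 FPKM in fronds without phosphate. In control medium it had 378, 299.6, 541 and 352 FPKM in roots and 232, 279.8, 196 and 267 FPKM in fronds. The groups overlapped without phosphate and not in control medium, and the log2 difference was 0.54 ± 0.22 (SE; adjusted p = 0.0356) without phosphate and 0.66 ± 0.22 (adjusted p = 0.0147) in control medium. Leaving out frond 5, 7 or 8 or root 6, 7 or 8 raised the first adjusted p to between 0.0601 and 0.116, a fit of the 8 libraries without phosphate alone gave 0.0511, and leaving out control frond 3 or control root 3 raised the second to 0.0503 and 0.0566.

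The 3 homologs of NAC83 (VNI2), an Arabidopsis factor that holds back xylem vessel formation and links abscisic acid to leaf senescence, were all higher in roots. Sp04g00805 had 258, 142, 293 and 351 FPKM in roots and 19.7, 24.2, 28.5 and 26.7 FPKM in fronds without phosphate. In control medium its levels were 211, 203, 218 and 219.9 FPKM in roots and 32.6, 34.5, 36.3 and 39.3 FPKM in fronds. Every root library stood well above every frond library, with log2 differences of 3.28 ± 0.20 (SE; adjusted p = 9.47e-10) and 2.55 ± 0.20 (adjusted p = 2.17e-08). The second homolog, Sp16g00266, averaged 167 ± 43.5 FPKM in roots and 13.3 ± 2.69 FPKM in fronds without phosphate and 136 ± 18.8 FPKM in roots and 18.2 ± 4.12 FPKM in fronds of the control (SD, n = 4), a log2 difference of 3.53 and 2.84. The third, Sp10g00261, was closer between the organs, with log2 differences of 1.76 (adjusted p = 3.81e-06) and 1.28 (adjusted p = 0.000125). Whether the 3 copies differ from one another in their organ difference was not tested.

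Both homologs of NAC87, which promotes cell death in the Arabidopsis root cap together with NAC46, were higher in roots as well. Sp10g00871 had 64.9, 64.7, 76.6 and 68.0 FPKM in roots and 18.7, 16.4, 17.7 and 14.3 FPKM in fronds without phosphate. Its control values were 61.9, 59.9, 69.5 and 61.5 FPKM in roots and 14.9, 17.1, 16.5 and 17.1 FPKM in fronds. The 8 root values and the 8 frond values were far apart and each set was narrow, with log2 differences of 1.97 ± 0.10 and 1.88 ± 0.10 (SE; adjusted p = 7.21e-11 and 1.37e-10). Sp01g01212 averaged 46.4 ± 3.22 FPKM in roots and 3.09 ± 1.17 FPKM in fronds without phosphate, and 45.7 ± 4.77 FPKM in roots and 7.98 ± 1.23 FPKM in fronds of the control (SD, n = 4). Its neighbour Sp01g01214, a homolog of NAC47, which in Arabidopsis drives upward leaf bending under waterlogging, had one of the widest organ gaps. It averaged 43.4 ± 5.05 FPKM in roots and 2.84 ± 0.969 FPKM in fronds without phosphate and 42.3 ± 9.02 FPKM in roots and 2.87 ± 0.918 FPKM in fronds of the control, with log2 differences of 3.56 and 3.49 (adjusted p = 5.46e-10 and 7.81e-10). The other NAC47 homolog, Sp06g00281, was also higher in roots, with 1.90 and 2.16 on the log2 scale.

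Sp11g00257 went the other way. It is closest to NAC71, which in Arabidopsis takes part in the healing of cut stems. It had 19.4, 17.5, 22.4 and 23.3 FPKM in roots and 89.0, 67.7, 66.8 and 73.2 FPKM in fronds without phosphate. The control libraries held 20.5, 12.9, 8.63 and 13.6 FPKM in roots and 58.4, 63.6, 83.8 and 71.2 FPKM in fronds. All frond libraries lay above all root libraries, with log2 differences of -1.79 ± 0.19 (SE; adjusted p = 5.58e-07) and -2.28 ± 0.19 (adjusted p = 4.40e-08). Sp04g00106, a homolog of NAC90, was also lower in roots but had at most 1.77 FPKM in any library. Sp06g01042, closest to the seed factor NAC25, was higher in roots by 0.81 and 0.90 (adjusted p = 0.00472 and 0.00280).

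The 2 homologs of NAC21/22 (NAC1), which in Arabidopsis passes the auxin signal on to lateral root formation, were higher in roots in both media. Sp16g00517 (chromosome 16, 3569473 to 3571294) had 393, 107, 166 and 213 FPKM in roots and 29.0, 29.0, 25.7 and 31.5 FPKM in fronds without phosphate. In control medium it had 245, 280.0, 244 and 225 FPKM in roots and 48.0, 51.7, 49.3 and 44.7 FPKM in fronds. Roots without phosphate were widely spread, from 107 to 393 FPKM, but all were above all fronds, with log2 differences of 2.73 ± 0.26 and 2.33 ± 0.26 (SE; adjusted p = 1.30e-07 and 9.57e-07). Without root library 5 its mean in roots without phosphate was 162 in place of 219.6 FPKM. Sp13g00755 averaged 100.0 ± 7.55 FPKM in roots and 20.0 ± 3.81 FPKM in fronds without phosphate, and 107 ± 12.1 FPKM in roots and 28.5 ± 2.44 FPKM in fronds of the control (SD, n = 4), a log2 difference of 2.28 and 1.87 (adjusted p = 2.66e-10 and 3.36e-09).

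All 6 homologs of membrane-tethered NAC factors were tested, and all 6 were higher in roots in both media, where 28 of 47 tested NAC members and 32.6% of all tested genes were called higher without phosphate and 25 of 47 and 28.8% in control medium. Their median log2 difference was 1.19 without phosphate and 0.64 in control medium. The widest gap was that of Sp16g00140, one of 2 homologs of NAC78, a factor of the proteasome stress response in Arabidopsis. It had 87.9, 90.9, 126 and 93.3 FPKM in roots and 9.63, 13.4, 8.93 and 7.01 FPKM in fronds without phosphate. Control roots held 158, 83.8, 113 and 87.8 FPKM and control fronds 7.97, 10.0, 9.48 and 12.2 FPKM. The organs were about as far apart in both media, at 3.24 ± 0.21 and 3.32 ± 0.21 (SE; adjusted p = 1.45e-09 and 1.29e-09). The other NAC78 homolog, Sp14g00158, had the higher mean of the pair in both organs and both media. It averaged 138 ± 25.7 FPKM in roots and 45.1 ± 3.98 FPKM in fronds without phosphate. In the control it averaged 146 ± 12.1 FPKM in roots and 64.4 ± 14.4 FPKM in fronds. The organ difference of Sp02g00254 (NAC53) was 1.30 (adjusted p = 7.97e-05) without phosphate and 0.65 (adjusted p = 0.0195) in control medium. That of Sp12g00019 (NAC16, known from leaf senescence) was 1.07 (adjusted p = 5.12e-05) and 0.48 (adjusted p = 0.0276). In control medium neither call stood without single libraries: that of Sp02g00254 had an adjusted p of 0.0559, 0.0659 and 0.0534 without control frond 3, control frond 4 and control root 2, and that of Sp12g00019 of 0.0529, 0.0883 and 0.104 without control frond 1, control frond 3 and control root 1. Sp14g00473 (NAC14) and Sp13g00139 (NTM1-like 9) were higher in roots by 1.00 and 0.91 without phosphate and by 0.55 and 0.64 in control medium.

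Of the 5 homologs of organ boundary and meristem factors, 4 were tested and 2 were higher and 1 lower in roots, with the same counts in both media. Over all tested genes 67.6% were called either way without phosphate and 59.8% in control medium. CUP-SHAPED COTYLEDON (CUC) proteins mark the borders between a meristem and the organs it forms. Sp02g00073 (chromosome 2, 303009 to 305077), a CUC3 homolog, had the largest root excess of all tested members. It had 34.5, 31.4, 26.5 and 23.5 FPKM in roots and 0.193, 0.297, 0.445 and 0.673 FPKM in fronds without phosphate. Its control values were 20.9, 34.8, 36.8 and 34.6 FPKM in roots and 1.27, 1.21, 1.16 and 0.681 FPKM in fronds. The means differed 72.1-fold without phosphate and 29.4-fold in control medium, and the log2(FPKM + 1) difference, which understates the change of low genes, was 4.42 ± 0.19 (SE; adjusted p = 9.88e-12) and 3.96 ± 0.19 (adjusted p = 4.26e-11).

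The other CUC3 homolog, Sp12g00604, was expressed in both organs. It had 34.2, 23.4, 23.4 and 80.3 FPKM in roots and 41.9, 44.4, 24.3 and 21.3 FPKM in fronds without phosphate. Control roots held 19.1, 30.7, 19.7 and 30.2 FPKM and control fronds 41.5, 33.0, 28.3 and 22.2 FPKM. The ranges overlapped in both media, with log2 differences of 0.16 (95% confidence interval -0.57 to 0.89) and -0.32 (-1.05 to 0.42). Whether the 2 homologs differ in their organ difference was not tested. Sp18g00751, a homolog of NAC79, averaged 20.8 ± 6.65 FPKM in roots and 1.04 ± 0.290 FPKM in fronds without phosphate, and 19.6 ± 4.22 FPKM in roots and 1.39 ± 0.903 FPKM in fronds of the control (SD, n = 4; log2 differences 3.38 and 3.18). The CUC2 homolog Sp08g00563 was lower in roots, at 0.428 ± 0.189 FPKM in roots and 2.21 ± 0.314 FPKM in fronds without phosphate and at 1.00 ± 0.641 FPKM in roots and 2.03 ± 0.532 FPKM in fronds of the control. Its call in control medium (log2 difference -0.64, adjusted p = 0.0231) was lost on the scale of equal FPKM sums (adjusted p = 0.0778) and without control frond 1, control frond 3 or control root 1 (0.0538, 0.0643 and 0.0869), and had an adjusted p of 0.0515 with a pseudocount of 0.1 and 0.0651 in the 8 control libraries alone. The NAC100 homolog Sp12g00877, untested for its low level, had 0 reads in all 8 root libraries, against 29 reads in fronds without phosphate and 49 reads in control fronds. With the roots set to 3 reads over 4 libraries, the fronds were at least 13.6-fold higher without phosphate and at least 18.0-fold higher in control medium.

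Among the 5 homologs of root cap and root stem cell factors, 3 were tested and the same 1 was called in each medium. Over all tested genes 67.6% were called either way without phosphate and 59.8% in control medium. BEARSKIN1 and SOMBRERO mature the root cap in Arabidopsis, and FEZ drives the divisions of its stem cells. Sp07g00545, a BEARSKIN1 homolog, had 4.87, 10.0, 6.36 and 3.18 FPKM in roots and 1.28, 0, 0.327 and 0.148 FPKM in fronds without phosphate. In control medium it had 6.89, 7.08, 3.29 and 8.34 FPKM in roots and 0.311, 0.334, 0.730 and 0.188 FPKM in fronds. Each root library lay above each frond library, with log2 differences of 2.29 ± 0.31 and 2.37 ± 0.31 (SE; adjusted p = 8.37e-06 and 7.25e-06). The second BEARSKIN1 homolog, Sp16g00192, and the SOMBRERO homolog, Sp08g00642, had at most 1.87 and 2.10 FPKM in any library and were not called, with organ differences of -0.41 and -0.46 without phosphate and -0.31 and -0.12 in control medium.

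The 10 homologs of xylem and secondary wall factors were low, summing to 19.9 ± 1.69 FPKM in roots and 10.1 ± 0.883 FPKM in fronds without phosphate, and to 21.3 ± 3.60 FPKM in roots and 11.5 ± 1.18 FPKM in fronds of the control (SD, n = 4). Of the 7 tested, 3 were higher and 2 lower in roots without phosphate, and 2 were higher and 1 lower in control medium. Over all tested genes 67.6% were called either way without phosphate and 59.8% in control medium. Both homologs of NAC75 were higher in roots. Sp05g00227 averaged 11.0 ± 2.06 FPKM in roots and 3.02 ± 0.933 FPKM in fronds without phosphate and 10.6 ± 2.20 FPKM in roots and 3.32 ± 0.751 FPKM in fronds of the control, with log2 differences of 1.59 and 1.42 (adjusted p = 2.68e-06 and 1.11e-05). Sp08g00915 stood at 3.33, 2.96, 3.23 and 2.80 FPKM in roots and 0.286, 0.440, 0.220 and 0.531 FPKM in fronds without phosphate. Sp04g00371, closest to NAC104 (XND1), a factor that opposes xylem vessel formation in Arabidopsis, was lower in roots. It had 2 reads in roots without phosphate, both in library 5, against 26 reads in fronds, and 0 reads in control roots, against 37 reads in control fronds. The fronds were 18.2-fold higher without phosphate (95% counting interval 4.57 to 158.7) and at least 13.6-fold higher in control medium, counting error only.

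The NAC73 homologs Sp19g00265 and Sp08g00575 were not called in either medium. Sp02g00710, a homolog of the vessel factor NAC37 (VND1), was called lower in roots without phosphate only (log2 difference -0.55, adjusted p = 0.0124), and not on the scale of equal FPKM sums (adjusted p = 0.0645). Sp04g00156, a homolog of NAC76 (VND2), was called higher there, by 0.79 (adjusted p = 0.0376), on 43 reads in roots and 5 in fronds. That call was lost without frond 5 or 8 or without root 6, 7 or 8, with adjusted p between 0.0532 and 0.133.

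NAC45 and NAC86 remove the nucleus of phloem sieve elements in Arabidopsis. Of their 5 homologs 2 were tested. Sp12g00018 had 26.5, 19.9, 25.6 and 54.3 FPKM in roots and 6.63, 19.3, 10.8 and 10.8 FPKM in fronds without phosphate. Control roots held 26.2, 21.0, 19.0 and 15.1 FPKM and control fronds 30.7, 20.0, 12.6 and 15.9 FPKM. Roots lay above fronds without phosphate and overlapped with them in control medium, with log2 differences of 1.33 ± 0.33 (SE; adjusted p = 0.00190) and 0.08 ± 0.33 (adjusted p = 0.841). Without root library 8 its mean in roots without phosphate was 24.0 in place of 31.6 FPKM. Sp02g00616 was lower in roots, at 0.281 ± 0.198 FPKM in roots and 1.64 ± 0.463 FPKM in fronds without phosphate and 0.372 ± 0.202 FPKM in roots and 1.40 ± 0.559 FPKM in fronds of the control (adjusted p = 0.000175 and 0.00227).

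The 3 homologs of NAC35 (LOV1), which delays flowering in Arabidopsis when overactive, formed the group with the largest frond excess. Sp16g00183 (chromosome 16, 965493 to 967462, minus strand) had 0.104, 0, 0 and 0 FPKM in roots and 27.3, 22.3, 24.5 and 21.6 FPKM in fronds without phosphate. In control medium it had 0, 0, 0.140 and 0 FPKM in roots and 23.4, 30.4, 18.9 and 20.9 FPKM in fronds. The root values rest on 1 read in each medium, from library 5 and from library 3, against 729 reads in fronds without phosphate and 713 in control fronds.

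Sp07g00535 (chromosome 7, 3138106 to 3140418, plus strand) likewise had 1 root read in each medium, in the same libraries, against 17.9, 22.2, 25.9 and 24.1 FPKM in fronds without phosphate and 19.3, 22.3, 28.1 and 20.0 FPKM in control fronds. Sp04g00538 (chromosome 4, 2600338 to 2601950, minus strand) had 4 root reads without phosphate and 2 in control medium, against 10.2, 14.3, 14.9 and 13.9 FPKM in fronds without phosphate and 9.39, 17.0, 13.2 and 10.5 FPKM in control fronds. Fronds were thus well above roots in every library for all 3 genes. The log2 differences, root minus frond, were -4.60, -4.51 and -3.72 without phosphate and -4.54, -4.48 and -3.64 in control medium, with adjusted p at or below 6.35e-11. By reads per library size, Sp04g00538 was 154-fold higher in fronds without phosphate (95% counting interval 59.9 to 569) and 219.9-fold higher in control fronds (60.5 to 1822), while the ratios of the other 2 rest on a single root read.

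The 2 homologs of SUPPRESSOR OF GAMMA RESPONSE 1 (SOG1), the central transcription factor of the plant DNA damage response, differed in their calls. Whether they differ from each other in their organ difference was not tested. Both gene models carry a second domain, as named above, and reads of the 2 parts were not told apart. Sp18g00340 averaged 67.0 ± 12.7 FPKM in roots and 28.5 ± 4.58 FPKM in fronds without phosphate and 78.9 ± 17.1 FPKM in roots and 31.3 ± 3.03 FPKM in fronds of the control (SD, n = 4), with log2 differences of 1.20 and 1.29 (adjusted p = 8.56e-06 and 4.94e-06). Sp04g01047 averaged 14.8 ± 4.07 FPKM in roots and 13.9 ± 1.40 FPKM in fronds without phosphate and 14.6 ± 5.58 FPKM in roots and 12.6 ± 2.47 FPKM in fronds of the control, and its log2 differences of 0.06 (95% confidence interval -0.42 to 0.53) and 0.16 (-0.32 to 0.63) were not called. Among the 4 members with other homologs, Sp08g00381 (rice NAC74) and Sp05g00858 were higher in roots, by 0.85 and 1.20 without phosphate and by 0.91 and 1.23 in control medium. Sp02g00902 (rice NAC22) was lower in roots, with log2 differences of -0.92 and -0.82. Its neighbour Sp02g00901 (soybean NAC6) was not called, with 0.25 and -0.16.

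The same Swiss-Prot protein was named for 2 or more members in 15 cases, which hold 34 of the 58 genes. For 7 of these proteins (NAC21/22, NAC35, NAC47, NAC75, NAC78, NAC83 and NAC87) all members were called in the same direction between root and frond in control medium. In that medium no protein had members called in both directions. Of all 47 tested members 25 were called higher there and 9 lower, so many calls share a direction in any case. Whether copies go the same way more often than other members was not tested. In 3 cases (CUC3, BEARSKIN1 and SOG1) one member was called and the other was tested and not called. For NAC45, Sp02g00616 was lower in roots and Sp12g00018 was not called in control medium, while without phosphate Sp02g00616 was lower and Sp12g00018 higher in roots. Reads of such copies could be shared in counting, which was not tested.

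In fronds, NAC genes were called in both directions after 1 day without phosphate. Of 47 tested members 1 was called higher and 3 lower, against 2.11% of all tested genes called higher and 2.30% called lower (4.41% either way). An unadjusted p under 0.05 was found for 11 members (23.4%) and for 3444 of all 16598 tested genes (20.7%), a similar share. The median log2 change, no phosphate minus control, was -0.06 for the tested members and 0.01 for all tested genes. The called genes were the NAC87 homolog Sp01g01212, the NAC53 homolog Sp02g00254 and the NAC21/22 homolog Sp13g00755, all lower, and Sp01g01216, closest to rice NAC68, which was higher. Over all genes 732 were called, and leaving out 1 library moved this count to 154, 229 and 466 without no-phosphate frond 5, 6 and 7, and to 367, 300 and 166 without control frond 1, 2 and 4.

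Sp01g01212 fell to 1.83, 4.67, 3.03 and 2.85 FPKM in fronds without phosphate, against 6.69, 9.52, 7.38 and 8.33 FPKM in control fronds. The highest library without phosphate lay below the lowest control library. The log2 change was -1.17 ± 0.17 (SE; adjusted p = 0.00345), and its adjusted p stayed between 0.00221 and 0.0173 in the 23 alternative analyses run for it. In roots the same gene had 44.0, 50.4, 43.6 and 47.7 FPKM without phosphate and 52.4, 41.1, 44.5 and 44.7 FPKM in control medium, with a change of 0.03 (95% confidence interval -0.33 to 0.38). The difference between the changes of the 2 organs, root minus frond, was 1.19 ± 0.24 (SE; adjusted p = 0.178) and was not called.

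Sp02g00254 had 29.5, 41.0, 21.1 and 35.5 FPKM in fronds without phosphate and 75.1, 79.1, 54.9 and 50.4 FPKM in control fronds. The 2 sets did not overlap, and the log2 change was -1.02 ± 0.22 (SE; adjusted p = 0.0192). The adjusted p was 0.0645 and 0.0508 without no-phosphate library 5 and 7, and 0.0570 and 0.0638 without control library 1 and 2. Sp13g00755 had 17.2, 16.2, 23.0 and 23.5 FPKM in fronds without phosphate and 24.9, 29.7, 29.5 and 30.1 FPKM in control fronds, again without overlap, and its log2 change was -0.51 (SE 0.13; adjusted p = 0.0345). Its adjusted p was 0.113 and 0.105 without no-phosphate library 5 and 6, and 0.0902, 0.0730 and 0.104 without control library 2, 3 and 4. The other NAC21/22 homolog, Sp16g00517, had 29.0, 29.0, 25.7 and 31.5 FPKM in fronds without phosphate and 48.0, 51.7, 49.3 and 44.7 FPKM in control fronds. These 4 and 4 values did not overlap either, but with the spread shared over all 16 libraries the change of -0.73 ± 0.26 was not called (adjusted p = 0.118), while in a fit of the 8 frond libraries alone it was (0.00359), as it was without no-phosphate root 5 (0.0164) or root 6 (0.0363).

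For Sp01g01216, 1 library stood far above the rest. It had 4.58, 22.1, 3.52 and 2.47 FPKM in fronds without phosphate and 0.760, 0.980, 0.714 and 0.367 FPKM in control fronds. All 4 libraries without phosphate lay above all 4 control libraries, and library 6 was the high one. The log2 change was 1.99 ± 0.52 (SE; adjusted p = 0.0408). Without library 6 the mean without phosphate was 3.52 in place of 8.16 FPKM and the adjusted p was 0.0936. It was 0.0875 and 0.0517 without no-phosphate frond 5 and 7, between 0.0740 and 0.113 without any 1 control frond, 0.0522 without control root 2, 0.0514 with a pseudocount of 0.1 and 0.1003 by voom on the recovered reads. In roots without phosphate library 6 was again the highest, with 0.132, 4.89, 0.504 and 0.555 FPKM, against 0.493, 0.301, 0.357 and 0.510 FPKM in control roots, and the change of 0.49 was not called (adjusted p = 0.667).

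The second rice NAC68 homolog, Sp06g00278, showed the same library as the highest. Rice NAC68, also called OsNAC4, triggers hypersensitive cell death. Sp06g00278 had 75.4, 123, 67.7 and 45.0 FPKM in fronds without phosphate and 35.2, 67.2, 16.3 and 73.2 FPKM in control fronds. In roots it had 28.1, 239, 160.0 and 143 FPKM without phosphate and 97.6, 31.1, 96.5 and 28.8 FPKM in control medium. The ranges overlapped in both organs and the spread was wide, and changes of 0.81 ± 0.62 in fronds and 1.03 ± 0.62 in roots (SE) were not called (adjusted p = 0.484 and 0.419). Library 6 of fronds and library 6 of roots are labelled only by group and number, and whether they share a flask is not given in the sources used here.

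**Figure D4:**
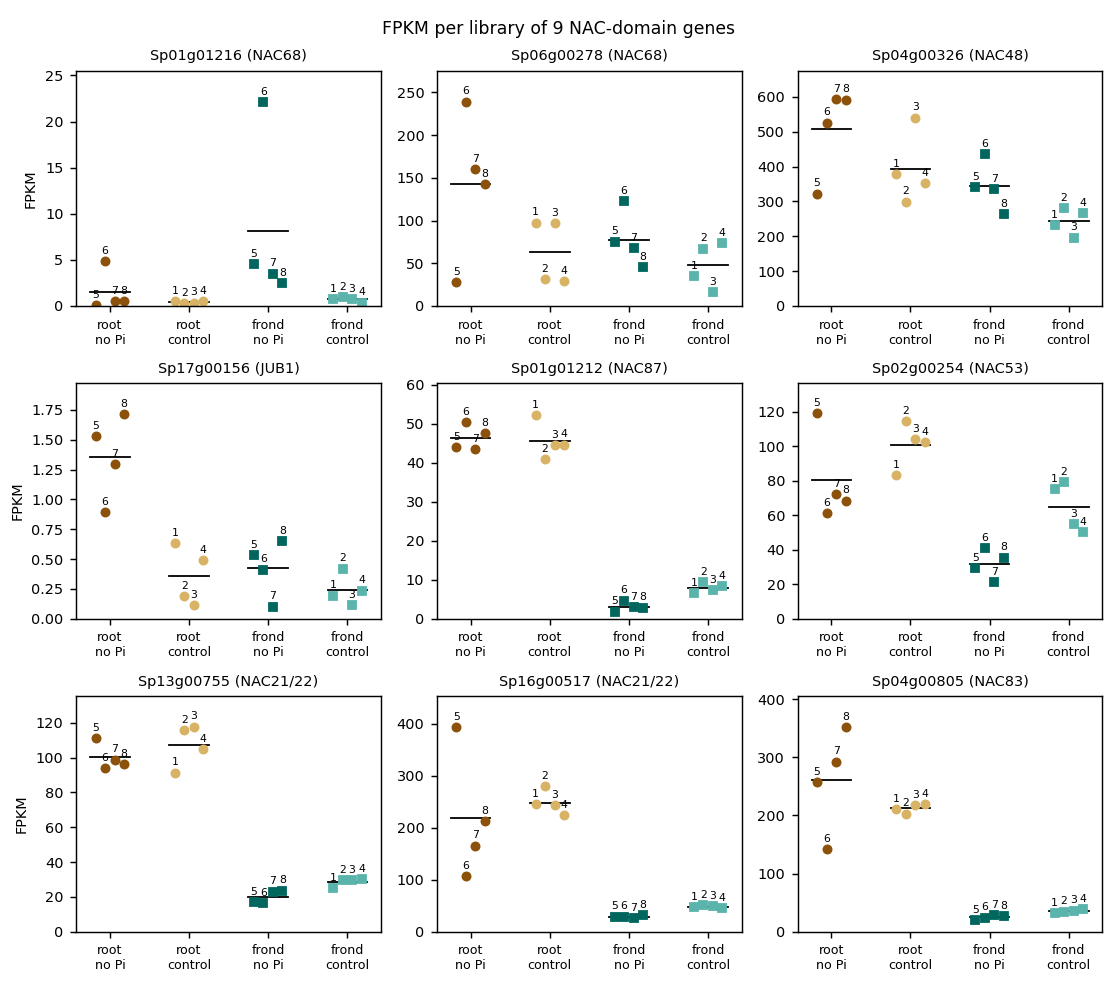
FPKM per library of 9 NAC-domain genes, with library numbers beside the points and group means as bars; no Pi means no phosphate. Library 6 of both organs without phosphate stands highest for Sp01g01216 (4.89 FPKM in roots, 22.1 FPKM in fronds), and the fronds without phosphate lie below the control fronds for Sp01g01212, Sp02g00254, Sp13g00755 and Sp16g00517.

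Several members described for their level or organ difference were not called in fronds over the 16 libraries, though 3 of them were in some alternatives. The CUC3 homolog Sp02g00073 averaged 0.402 ± 0.208 FPKM without phosphate and 1.08 ± 0.270 FPKM in control fronds (SD, n = 4; adjusted p = 0.0935), and it was called lower with a pseudocount of 0.1 (0.0248) and without control root 1 (0.0487). The NAC78 homolog Sp14g00158 averaged 45.1 ± 3.98 FPKM without phosphate and 64.4 ± 14.4 FPKM in control fronds (adjusted p = 0.0790), and it was called lower without control frond 3 (0.0398) or no-phosphate root 5 (0.0464). For the NAC83 homolog Sp04g00805 all libraries without phosphate, 24.8 ± 3.82 FPKM on average, lay below all control libraries, 35.7 ± 2.87 FPKM, with a change of -0.52 (adjusted p = 0.154). It was called lower in a fit of the 8 frond libraries alone (0.0245) and without no-phosphate root 6 (0.0221). The most abundant member, Sp04g00326, averaged 344 ± 70.8 FPKM without phosphate and 244 ± 37.5 FPKM in control fronds, a change of 0.49 (95% confidence interval 0.03 to 0.95; adjusted p = 0.213). The membrane-tethered group had 1 of 6 members called, lower, and a median change of -0.34. For the 3 NAC35 homologs the changes in fronds were 0.05, 0.01 and 0.10, with 95% confidence intervals of -0.26 to 0.36, -0.30 to 0.33 and -0.27 to 0.48.

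In roots no NAC member was called after 1 day without phosphate, either by limma or by voom on the recovered reads. Of all tested genes 0.422% were called, 0.355% higher (59 genes) and 0.0663% lower (11 genes). An unadjusted p under 0.05 was found for 2 members (4.26%) and for 2699 of all 16598 tested genes (16.3%). The closest was Sp17g00156 (chromosome 17, 1076815 to 1079182), a homolog of JUNGBRUNNEN 1 (JUB1), an Arabidopsis factor of longevity and of hydrogen peroxide responses. It had 1.53, 0.897, 1.30 and 1.71 FPKM in roots without phosphate and 0.634, 0.193, 0.115 and 0.491 FPKM in control roots. All libraries without phosphate lay above all control libraries, at levels near the limit of detection, and the log2 change was 0.80 (SE 0.18; adjusted p = 0.0567). It was called with no filter on low values (adjusted p = 0.0491) and without no-phosphate root 5, no-phosphate root 6 or control root 1 (0.0437, 0.0316 and 0.0336). The NAC71 homolog Sp11g00257 averaged 20.6 ± 2.67 FPKM without phosphate and 13.9 ± 4.92 FPKM in control roots (adjusted p = 0.144), and without control root 1 it was called as well (0.0334). Without no-phosphate root 5, Sp16g00517 was called lower (log2 change -0.67, adjusted p = 0.0387).

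The count over all genes in roots depended strongly on single libraries. It was 791 without no-phosphate root 5, 346 without control root 1 and 323 without no-phosphate root 6. It was 16, 4 and 1 without control root 4, 2 and 3, and 0 without no-phosphate root 7 or 8. The absence of NAC calls in roots is therefore no sign that these genes did not respond.

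**Figure D5:**
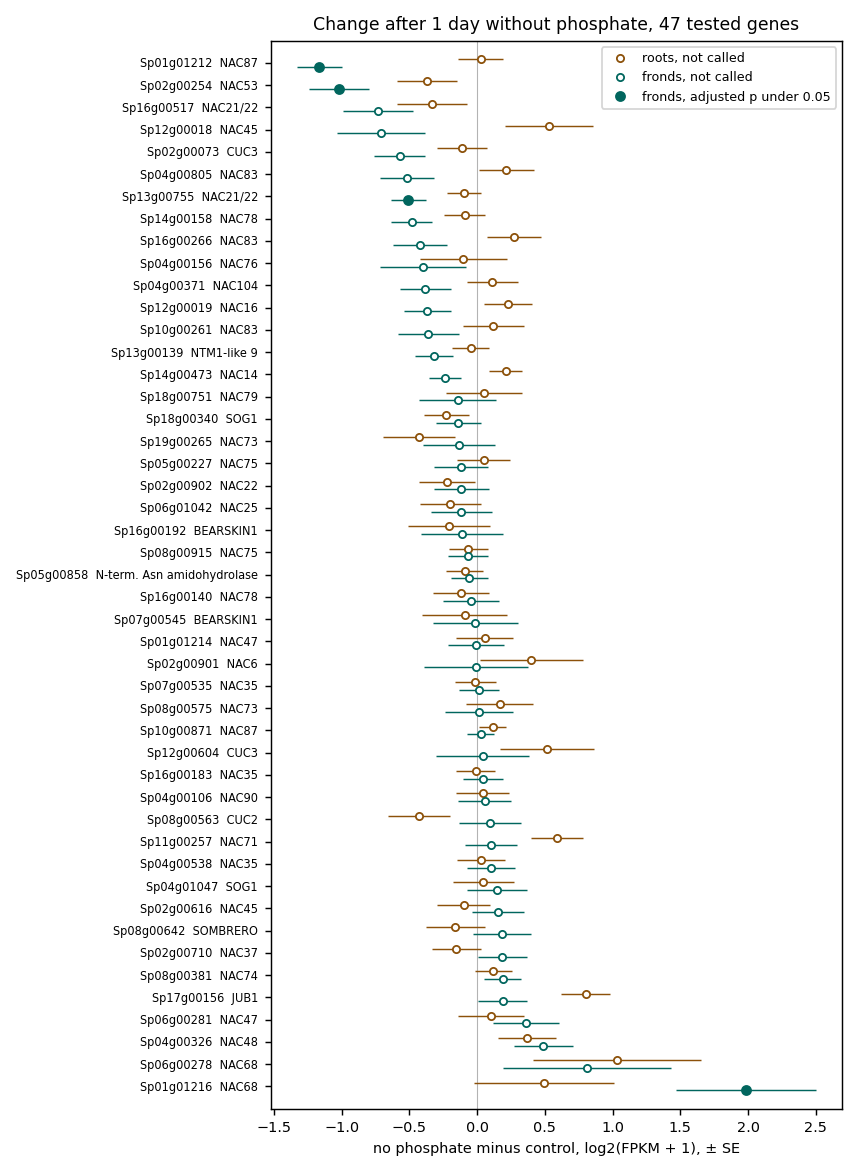
Change of the 47 tested NAC-domain genes after 1 day without phosphate, no phosphate minus control on the log2(FPKM + 1) scale with standard errors, in roots (brown) and fronds (green), ordered by the change in fronds. The 4 filled points are the members called in fronds, 3 of them lower and Sp01g01216 higher, and no root point is filled.

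The interaction asked whether the change without phosphate differed between root and frond. By limma 0 of 16598 genes (0%) were called, 1843 of them having an unadjusted p under 0.05, and voom on the recovered reads called 2 genes, no NAC member among them. Of the 47 NAC members 8 (17.0%, against 11.1% of all tested genes) had an unadjusted p under 0.05. Sp01g01212 had the smallest adjusted p among them (0.178). Without no-phosphate root 6 the count was 116 genes, among them Sp04g00805 (log2 difference 1.00, adjusted p = 0.0304) and Sp01g01212 (1.15, adjusted p = 0.0495). For Sp04g00805 the change was 0.22 in roots and -0.52 in fronds, and the difference over all 16 libraries was 0.73 (95% confidence interval 0.13 to 1.34; adjusted p = 0.389).

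Genes of processes that NAC factors are known to control were followed by keyword lists, which exclude the NAC genes and also take in genes that only share a word. Their counts between the organs stand beside 32.6% of all tested genes called higher and 35.0% called lower in roots without phosphate, and 28.8% and 31.0% in control medium. The list of cell death proteases and nucleases also took in Sp14g00643, a homolog of Bax inhibitor 1. Of its 28 tested genes, 16 were higher and 4 lower in roots without phosphate. In control medium 14 were higher and 2 lower. Sp14g00643 averaged 229 ± 29.9 FPKM in roots and 81.6 ± 5.09 FPKM in fronds without phosphate. In the control it averaged 198 ± 21.5 FPKM in roots and 71.4 ± 1.46 FPKM in fronds (SD, n = 4). Sp17g00575, a homolog of the senescence nuclease Endonuclease 1, averaged 139.9 ± 41.9 FPKM in roots and 5.42 ± 1.76 FPKM in fronds without phosphate, and 155 ± 46.9 FPKM in roots and 6.98 ± 1.03 FPKM in fronds of the control (SD, n = 4). Sp09g00643, a homolog of the cell death protease CEP1, averaged 79.6 ± 31.2 FPKM in roots and 0.695 ± 0.730 FPKM in fronds without phosphate, and 85.2 ± 27.0 FPKM in roots and 1.07 ± 0.714 FPKM in fronds of the control (SD, n = 4). None of the 28 was called in the phosphate comparison of either organ, against 4.41% of all tested genes in fronds and 0.422% in roots. Sp08g00096, a homolog of Endonuclease 4, had the smallest adjusted p of the list in fronds (0.137), and another Endonuclease 4 homolog, Sp08g00095, in roots (0.164).

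Of 10 tested xylem and secondary wall genes, 3 were higher and 3 lower in roots without phosphate and 3 were higher and 1 lower in control medium. Sp03g00687, a cellulose synthase A subunit 8 homolog, averaged 162 ± 33.0 FPKM in roots and 101 ± 3.47 FPKM in fronds without phosphate, and 148 ± 13.6 FPKM in roots and 88.2 ± 1.12 FPKM in fronds of the control (SD, n = 4). The other subunit 8 homolog, Sp09g00953, averaged 19.2 ± 9.26 FPKM in roots and 35.4 ± 2.33 FPKM in fronds without phosphate, and 22.3 ± 5.01 FPKM in roots and 31.0 ± 4.33 FPKM in fronds of the control. Sp20g00032, a subunit 7 homolog, was called lower in roots of the control, with 0.826 ± 0.400 FPKM in roots and 1.63 ± 0.219 FPKM in fronds (log2 difference -0.55, adjusted p = 0.0225). The phosphate comparisons called 4.41% of all tested genes in fronds and 0.422% in roots. In the list of senescence and chlorophyll breakdown 1 of 21 tested genes was called in a phosphate comparison. This was Sp01g01372, a homolog of Senescence associated gene 20, which rose to 697 ± 91.0 FPKM in fronds without phosphate, against 332 ± 47.5 FPKM in control fronds (log2 change 1.07, adjusted p = 0.0143). Between the organs 8 of the 21 were higher and 7 lower in roots without phosphate, and 7 were higher and 7 lower in control medium. The mitochondrial retrograde list took in homologs of alternative oxidases and alternative NAD(P)H-ubiquinone oxidoreductases. Among them was Sp11g00621, whose closest protein is named as a chloroplast oxidase. Of the 12 tested genes of that list, 5 were higher and 5 lower in roots without phosphate. In control medium 3 were higher and 3 lower. The alternative oxidase homolog Sp11g00088 averaged 64.3 ± 21.1 FPKM in roots and 3.53 ± 0.683 FPKM in fronds without phosphate, while another, Sp09g00695, averaged 70.6 ± 13.6 FPKM in roots and 162 ± 19.1 FPKM in fronds (SD, n = 4). Of 27 tested DNA damage genes 7 were higher and 8 lower in roots without phosphate and 7 were higher and 5 lower in control medium. In the xylem, mitochondrial and DNA damage lists 0 genes were called by limma in the phosphate comparison of either organ. Beside these counts stand the same 4.41% and 0.422% of all tested genes. In the mitochondrial list the oxidase homolog Sp07g00995 came close in roots (log2 change 0.85, adjusted p = 0.0506 by limma). It averaged 18.8 FPKM in roots without phosphate and 9.79 FPKM in control roots. In the DNA damage list Sp16g00405, a JOKA2 homolog, came close in fronds (log2 change -0.69, adjusted p = 0.0511 by limma). It averaged 53.2 FPKM in fronds without phosphate and 88.0 FPKM in control fronds.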

How the data were processed

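Per the labels' protocols, poly(A) RNA gave paired reads of 150 bp. The submitters' processing notes name HISAT2 2.0.5 for alignment and featureCounts 1.5.0-p3 for counting. No source used here names the genome build, the annotation or a strand setting. Per the file headers the authors deposited FPKM, 1 column per library, with gene length and position. Of the table's lines 1 was emptied and not used here.

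Where read numbers were not very high, each FPKM value times gene length was a whole multiple of a library's step. This held for 100% of such values in every library (tolerance 0.001 reads). The values with the most reads were left out of that check. All multiples were rounded and taken as reads. The library size behind the step was 0.886 to 1.14 times their sum, with all fronds below and all roots above their own sum, so libraries had been scaled against each other in a way no source used here states. Replicate libraries differed beyond sampling noise (chi-square per degree of freedom of 3.68 or more), so none was counted as a repeat.

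Group means were fitted over the 16 libraries on log2(FPKM + 1) with limma 3.58.1 in R 4.3.3 (trended, robust prior, statmod 1.5.0; 12 residual degrees of freedom), for the genes that averaged 0.5 FPKM or more. Tests were two-sided with Benjamini-Hochberg adjustment over all genes of a contrast, called at 0.05. The scripts were tested on simulated data. Alternatives were other pseudocounts and filters, FPKM rescaled to the same sum, voom with trimmed-mean scaling on the recovered reads, a prior without trend, the libraries of a comparison alone, the column number as a block, and leaving out each of the 16 libraries. Read ratios of genes with few reads have exact 95% intervals or a floor of 3 reads over 4 libraries and cover counting error only.

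The Pfam rule for the members, the role groups and the keyword lists were set with earlier results of these data known. That rule itself uses no expression value. Roles follow the name of the closest protein. Named members are those called in a phosphate contrast or the interaction, the 12 with the largest and the 12 with the smallest called organ difference in control medium (9 were lower), the 10 highest by mean level and up to 4 per role group; from each keyword list up to 3 genes by adjusted p. Sp04g00156, Sp06g01042, Sp06g01043, Sp08g00575, Sp12g00877 and Sp17g00156 fall outside that rule and were named after their values were seen, as was the attention to library 6 for Sp06g00278.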

Additional observations from a re-analysis of the deposited data

Results flagged for a closer look

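In 19 of 188 sets of 4 libraries, 1 library lay farther from the other three than Dixon's 95% limit allows. In 7 of the 19 the other libraries were all listed at 0, where any read in 1 library passes that limit by construction. The remaining 12 are of 180 sets with at least 2 libraries above 0. The limit is set to be passed in about 1 in 20 sets that hold no deviating library. What set these 12 apart was not tested.

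Library 6 of the plants without phosphate stood high for Sp01g01216, with 4.89 FPKM in roots, where the others had 0.132 to 0.555, and 22.1 FPKM in fronds, where the others had 2.47 to 4.58. Library 1 of control roots stood apart for several members. It was high for Sp14g00158 (163.9 FPKM, the others 138 to 141), Sp12g00019 (98.99 FPKM, the others 54.9 to 59.3) and Sp05g00858 (15.5 FPKM, the others 12.1 to 12.6), and low for Sp02g00073 (20.9 FPKM, the others 34.6 to 36.8). Root library 5 without phosphate was low for Sp02g00901 (2.47 FPKM, the others 5.97 to 6.58) and high for Sp16g00192 (1.38 FPKM, the others 0 to 0.165). Root library 7 without phosphate was high for Sp16g00140 (125.6 FPKM, the others 87.9 to 93.3). In control fronds, library 1 was low for Sp13g00755 (24.9 FPKM, the others 29.5 to 30.1) and for Sp04g00371 (1.86 FPKM, the others 2.19 to 2.25). Frond library 5 without phosphate was high for Sp04g00106 (1.77 FPKM, the others 0.567 to 0.720).

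The remaining values are single libraries with a few reads beside libraries at 0. In roots without phosphate, library 5 had 0.104 FPKM of Sp16g00183, 0.111 FPKM of Sp07g00535 and 0.360 FPKM of Sp04g00371. In control roots, library 3 had 0.140 FPKM of Sp16g00183, 0.149 FPKM of Sp07g00535 and 0.266 FPKM of Sp04g00538, and library 4 had 0.542 FPKM of Sp04g00106.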

How the results depend on the processing

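Of 1815 alternative values for 77 called member results, 1768 stayed past the threshold, 47 (in 10 results) missed it and 0 changed sign. Some alternatives, such as another prior or leaving out a library of another group, leave a log2 change as it was and could not change its sign. A gene that a filter dropped was not counted there. Of 1723 values for the 73 organ results 28 missed the threshold. Of 23 values each for the frond phosphate calls, Sp01g01216 missed it in 10, Sp13g00755 in 5, Sp02g00254 in 4 and Sp01g01212 in 0. In fronds without phosphate the members called higher were 0 with a pseudocount of 0.1 and 0 with voom, and in a fit of the 8 frond libraries alone 5 were lower and 1772 genes were called in all. Leaving out 1 library gave 154 to 972 genes, 0 to 1 members higher and 1 to 5 lower. In roots the number of all genes called was 25 after rescaling to the same sum, 124 with voom, 40 with a prior without trend and 0 in the 8 root libraries alone, and 1 member was higher with no filter. Without 1 library it ran from 0 to 791 genes, 0 to 2 members higher and 0 to 1 lower. The interaction gave 2 genes after rescaling, 2 with voom and 2 with the replicate block, and 0 to 116 genes without 1 library (0 to 2 members higher, 0 lower). Between the organs, members lower in roots were 5 in control medium and 6 without phosphate with a filter of 2 FPKM, which leaves fewer genes tested. The organ counts without 1 library were 10695 to 11314 genes without phosphate (26 to 29 members higher, 10 to 12 lower) and 9253 to 10137 in control medium (22 to 25 higher, 7 to 9 lower). Beyond the smaller tests named, the cause of these shifts was not tested.

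Rescaling moved the split of calls over all genes to 7027 higher and 4519 lower in roots without phosphate and to 6642 and 3789 in control medium, against 5415 and 5802 and against 4785 and 5144 as deposited. In fronds it gave 240 higher and 587 lower, against 351 and 381, and in roots 16 and 9, against 59 and 11. With the column number as replicate block, 11002 genes were called between the organs without phosphate and 9700 in control medium, with 27 members higher and 11 lower and 25 higher and 9 lower. Libraries with the same number did not deviate together (correlations of -0.12 to 0.15, 3 of 8 numbers matching best with themselves), so the numbers were not used as pairs; this does not show that libraries of a number came from different flasks. With that block the organ call of Sp04g00326 without phosphate was lost (adjusted p = 0.0660). No paired analysis was possible for the phosphate comparisons because the labels number every group 1 to 4 while the columns run from 1 to 8 per organ, and a column cannot be matched to a labelled number. Members under about 1 FPKM rest on few reads.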
